A study of Arabidopsis thaliana with 6 samples.

Results

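The genes described here are 10 Arabidopsis genes of the heat shock response, out of 32833 genes in the count files. They were taken as a fixed set of locus identifiers, written with earlier results of these data known. They comprise the heat shock factors HSFA2 (AT2G26150) and HSFA9 (AT5G54070), the disaggregase HSP101 (AT1G74310) and 7 small heat shock proteins, which are HSP17.4-CI (AT3G46230), HSP17.6C-CI (AT1G53540), HSP17.8-CI (AT1G07400), HSP18.2-CI (AT5G59720), HSP17.6-CII (AT5G12020), HSP17.7-CII (AT5G12030) and HSP21 (AT4G27670). Their RNA was counted in 6 libraries of 14-day-old seedlings, 2 each of *fio1-1*, *fio1-2* and the wild type Col-0. FIO1 is the Arabidopsis relative of the RNA methyltransferase METTL16, and the comparisons ask how transcript levels differ when it is impaired. The allele *fio1-1* carries a splice-site mutation made with a chemical mutagen. The libraries labelled *fio1-2* most likely come from the CRISPR line named *fio1-5* in the study, which uses the label's name for a T-DNA line, and whether the plants still carried the CRISPR vector is not given in the sources used here. Its Cas9 cassette ended in a terminator named for an Hsp gene that is not identified further, and whether reads from it enter a heat shock count of *fio1-2* was not tested. From a protein model, the study considers an impaired enzyme very probable in both *fio1-1* and *fio1-5*. Its discussion describes the variants used as probably lacking enzyme activity. The study also raises the possibility that some FIO1 activity remains in these alleles. Each library was made from many pooled seedlings, and no heat treatment is described for any group. The labels name soil as the growth medium whereas the methods name agar plates.

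Small heat shock proteins bind unfolding proteins and hold them in a form that can be refolded. HSP101 then pulls proteins out of aggregates together with the HSP70 chaperones. In vegetative tissue most of these genes are nearly silent until heat activates class A1 heat shock factors, which bind heat shock elements in promoters and also switch on HSFA2, a factor that prolongs the response. In seeds a part of the same set is made without heat during maturation, under HSFA9, a factor that acts downstream of the embryo regulator ABI3.

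Total counts lay between 9717111 and 13055457 per library, with TMM scaling factors between 0.983 and 1.01. The green seedling markers RBCS1A, RCA, LHCB1.3 and PSBO1 each had at least 29135 counts in every library, as the labelled tissue should. FIO1 itself had 8.24 and 8.54 CPM (counts scaled by library size and TMM factor) in *fio1-1*, 6.97 and 8.65 CPM in *fio1-2*, and 11.1 and 8.94 CPM in Col-0. Neither difference from Col-0 passed the test, and a splice-site change or a small deletion need not lower the count, so this gene does not check the labels.

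The promoters are shown first, because the heat shock element is the site that heat shock factors bind. In the 250 bases before the annotated start of each gene, 5 of the 10 genes held the element as 2 facing units, GAANNTTC or TTCNNGAA, against 16.15% of 27443 promoters searched in the same way on both strands. Runs of 3 alternating units, which contain both shorter forms, were present in 3 of the 10 genes and in 0.386% of all promoters. The stretches below are from the RefSeq TAIR10.1 assembly, are written 5′ to 3′ on the strand of the gene, and carry the element in capitals.
HSFA2, chr2:11135526-11135558, plus strand: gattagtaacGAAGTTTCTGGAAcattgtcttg
HSP17.4-CI, chr3:16984868-16984895, minus strand: gaagaaacctGAAATTTCAAGAAacttg
HSP17.6C-CI, chr1:19980236-19980268, plus strand: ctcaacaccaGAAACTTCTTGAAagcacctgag
HSP17.7-CII, chr5:3884843-3884870, minus strand: atcaagacgtTTCTCGAAcgttagagaa
HSP21, chr4:13820054-13820081, minus strand: aacgagtcgaGAAACTTCgtatcaaatc
The first 3 stretches hold the 3-unit run and the last pair a 2-unit element. In a window chosen after these were seen, the 250 bases before the start codon, 8 of the 10 genes held a 2-unit element, against 19.502% of genes. The 3-unit run was found there in 2 of the 10, HSP17.4-CI and HSP18.2-CI, against 0.627% of genes. HSFA2 and HSP17.6C-CI, shown above with that run, did not hold it in this second window. HSFA9 and HSP101 held neither form in it. A match of letters does not show that a factor binds there. Only exact matches within 250 bases were sought, so a missing match does not show that a gene lacks the element.

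The HSFA9 promoter is shown for a second element. The RY element of seed promoters, CATGCA, is bound by ABI3 and its relatives. It was found on either strand in the promoter windows of 3 of the 10 genes and in 8.432% of all promoters. In HSFA9 a stretch of 8 letters matched it on both strands, and these letters are in capitals.
HSFA9, chr5:21943789-21943826, plus strand: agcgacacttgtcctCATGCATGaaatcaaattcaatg
The core of the abscisic acid response element, ACGTG, was likewise found in 3 of the 10 promoters, against 22.913% of all promoters.

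The 10 genes stood at low or trace levels in all 3 genotypes. Only 5 of them passed the filter on low counts, namely HSP101, HSFA9, HSP18.2-CI, HSP17.8-CI and HSP17.4-CI, and these 5 alone were tested. Per kilobase of exon, the mean levels over the 6 libraries were 3.04 CPM for HSP101, 2.30 for HSP18.2-CI, 2.15 for HSFA9, 1.57 for HSP17.8-CI and 1.32 for HSP17.4-CI. HSFA2 followed with 0.37 CPM per kilobase. HSP17.7-CII had 0.12 CPM per kilobase, and the other 3 genes had 0.052 or less. By comparison the constitutive cytosolic chaperone HSC70-1 stood at 613 CPM per kilobase.

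None of the 5 tested genes was called in any comparison by limma-voom, where a call needs an adjusted p under 0.05 and an absolute log2 fold change of at least 1. Among all 21268 genes tested, 4.91% were called in *fio1-1* against Col-0, 5.93% in *fio1-2* against Col-0 and 2.68% in *fio1-2* against *fio1-1*. At those shares a count of 0 among 5 genes is near the background. An unadjusted p under 0.05 was reached by 2, 1 and 0 members in these comparisons by limma-voom, while 38.1%, 41.5% and 28.9% of all genes reached it. The counts at an unadjusted p under 0.05 were 1, 0 and 0 with edgeR and 0 in each comparison with DESeq2, and neither tool called a member. Both comparisons with Col-0 use the same 2 Col-0 libraries.

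**Figure D1:**
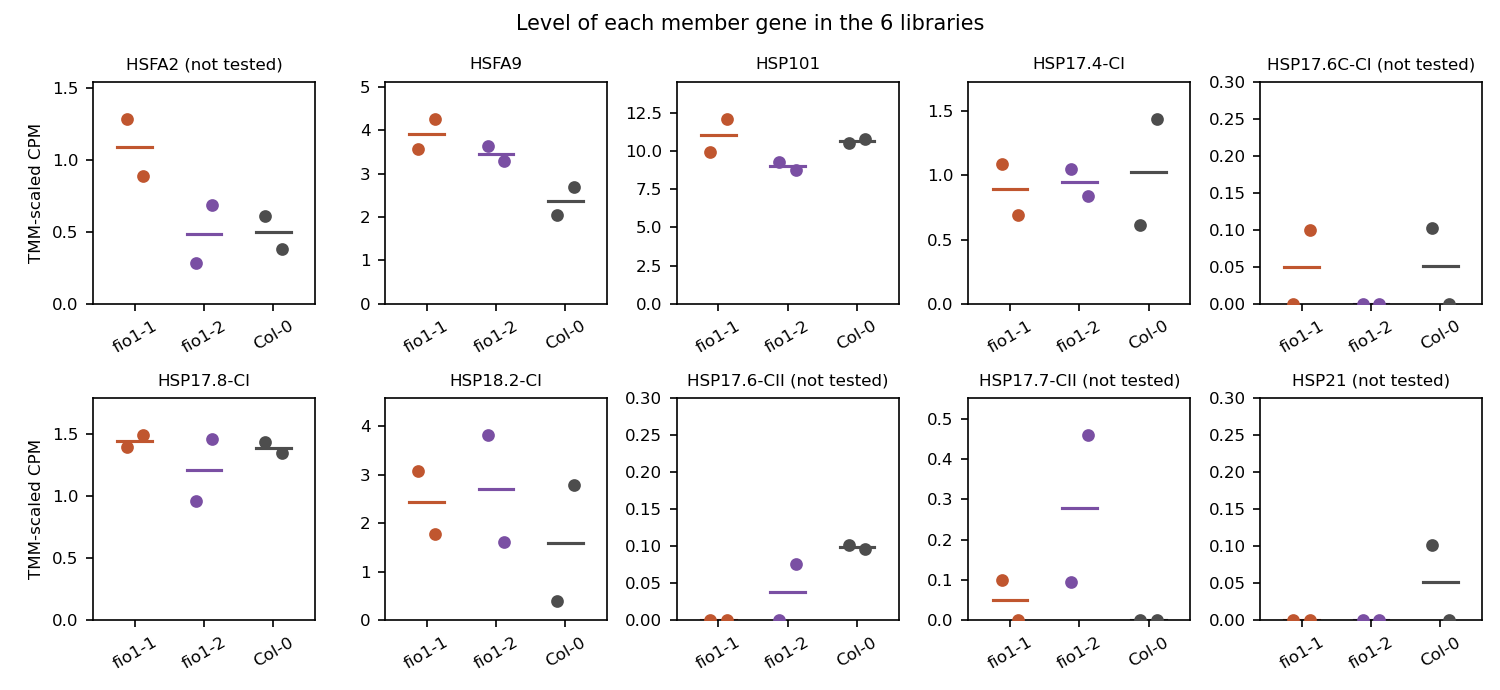
Level of each of the 10 genes in TMM-scaled CPM (vertical axes, which differ between panels and start at 0) in *fio1-1*, *fio1-2* and Col-0, with a point per library and a line at the mean of 2 libraries. HSP101 stayed near 10 CPM in every group, and the 2 Col-0 libraries of HSP18.2-CI lay far apart, at 0.41 and 2.79 CPM.

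HSFA2 (chr2:11135624-11137792, plus strand, 2 exons), the heat-induced factor that extends the heat response, had 13 and 9 counts in *fio1-1*, 3 and 9 in *fio1-2*, and 6 and 4 in Col-0. These counts were too low for the filter. As CPM these were 1.29 and 0.894 in *fio1-1*, 0.287 and 0.689 in *fio1-2*, and 0.613 and 0.385 in Col-0. Both *fio1-1* libraries lay above the other 4, and *fio1-2* and Col-0 overlapped. The ratio of summed, depth-scaled counts was 2.20 for *fio1-1* to Col-0 (95% interval 1.00 to 5.21), 1.03 for *fio1-2* to Col-0 (0.41 to 2.66) and 0.467 for *fio1-2* to *fio1-1* (0.21 to 0.99). These intervals cover counting error only, and a fit without the filter gave adjusted p-values of 0.209, 0.923 and 0.205 by limma-voom.

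HSFA9 (chr5:21943983-21945651, plus strand, 3 exons), the seed factor, had 3.57 and 4.27 CPM in *fio1-1*, 3.63 and 3.29 CPM in *fio1-2*, and 2.04 and 2.69 CPM in Col-0. Both mutants were above Col-0 in every library, and the 2 mutants overlapped each other. The log2 fold change was 0.72 in *fio1-1* (SE 0.32, 95% interval 0.08 to 1.36, limma-voom adjusted p 0.0874) and 0.53 in *fio1-2* (interval -0.11 to 1.17, adjusted p 0.206). It was -0.18 between *fio1-2* and *fio1-1* (interval -0.74 to 0.37, adjusted p 0.721). The interval in *fio1-1* lies above 0, although the adjusted p misses the threshold, and that in *fio1-2* includes 0. Both include changes of more than 2-fold. HSFA9 overlaps AT5G54075 on the opposite strand by 303 bases, and whether counting used the strand is not stated. AT5G54075 had 37 and 23 counts in *fio1-1*, 27 and 38 in *fio1-2*, and 21 and 26 in Col-0, and the part of its reads in the HSFA9 count was not tested.

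HSP101 (chr1:27936508-27940369, minus strand, 6 exons), the disaggregase of the cytosol and nucleus, was the most abundant of the 10. It had 9.93 and 12.1 CPM in *fio1-1*, 9.27 and 8.73 CPM in *fio1-2*, and 10.5 and 10.8 CPM in Col-0. The *fio1-1* libraries lay on both sides of Col-0, and both *fio1-2* libraries lay below it. The log2 fold change was 0.04 in *fio1-1* (SE 0.17, interval -0.29 to 0.37, limma-voom adjusted p 0.884), -0.25 in *fio1-2* (interval -0.59 to 0.09, adjusted p 0.270) and -0.29 between *fio1-2* and *fio1-1* (interval -0.63 to 0.04, adjusted p 0.253). All 3 intervals exclude a 2-fold change in either direction. HSP101 overlaps AT1G74300 on the opposite strand by 101 bases.

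HSP18.2-CI (chr5:24062323-24063300, plus strand, 1 exon), a class I small heat shock protein of the cytosol, had the largest differences from Col-0 among the 5 tested genes. It had 31 and 18 counts in *fio1-1*, 40 and 21 in *fio1-2*, and 4 and 29 in Col-0. As CPM these were 3.08 and 1.79 in *fio1-1*, 3.82 and 1.61 in *fio1-2*, and 0.41 and 2.79 in Col-0. The first Col-0 library was below all others, while the second lay inside the range of both mutants. The log2 fold change was 1.04 in *fio1-1* (SE 0.51, interval 0.03 to 2.05, limma-voom adjusted p 0.121) and 1.04 in *fio1-2* (SE 0.49, interval 0.06 to 2.02, adjusted p 0.0960), and 0.01 between the mutants (interval -0.78 to 0.79, adjusted p 0.997). These values turn on which Col-0 library is used. Without Col-0 replicate 1 the log2 fold change was -0.24 in both mutants. Without Col-0 replicate 2 it was 2.38 in both, and the gene was called, with adjusted p-values of 0.0384 in *fio1-1* and 0.0322 in *fio1-2*. It was also called in *fio1-2* without *fio1-2* replicate 2, at 1.72 and an adjusted p of 0.0207.

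Against Col-0, the other tested class I genes had smaller estimates than HSP18.2-CI, with wide intervals. HSP17.8-CI (chr1:2274926-2275783, plus strand, 1 exon) had 14 and 15 counts in *fio1-1*, 10 and 19 in *fio1-2*, and 14 and 14 in Col-0. Its log2 fold change was 0.05 in *fio1-1* (interval -0.85 to 0.95, limma-voom adjusted p 0.950), -0.20 in *fio1-2* (interval -1.11 to 0.71, adjusted p 0.778) and -0.25 between *fio1-2* and *fio1-1* (adjusted p 0.771). The groups overlapped in each comparison.

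HSP17.4-CI (chr3:16984118-16984867, minus strand, 1 exon), a class I protein that is also made in maturing seeds, had 11 and 7 counts in *fio1-1*, 11 and 11 in *fio1-2*, and 6 and 15 in Col-0. Its log2 fold change was -0.12 in *fio1-1* (interval -1.23 to 0.98, limma-voom adjusted p 0.894), -0.05 in *fio1-2* (interval -1.10 to 1.01, adjusted p 0.959) and 0.08 between *fio1-2* and *fio1-1* (adjusted p 0.950). The Col-0 libraries enclosed all 4 mutant libraries. Falls of 2-fold lie within the intervals of both mutants. On the opposite strand this gene overlaps AT3G46220 and AT3G07365, and AT3G46220 had 18.6 and 19.8 CPM in *fio1-1*, 17.96 and 18.4 CPM in *fio1-2*, and 20.5 and 18.8 CPM in Col-0, so its count is uncertain.

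**Figure D2:**
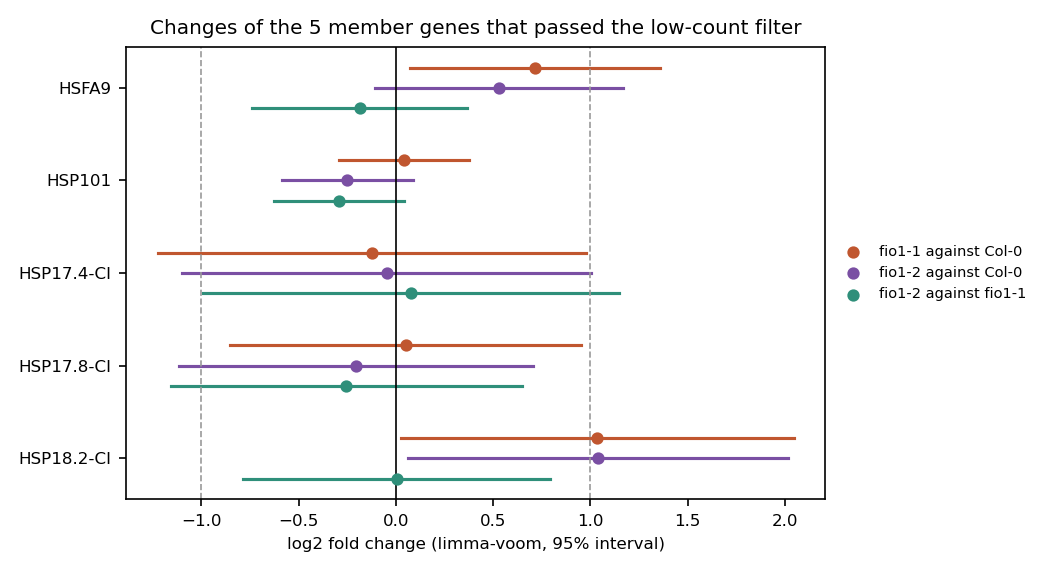
Log2 fold change of the 5 tested genes (horizontal axis, limma-voom) with 95% intervals in *fio1-1* against Col-0, *fio1-2* against Col-0 and *fio1-2* against *fio1-1*, with dashed lines at 1 and -1. The intervals of HSP101 stay inside the dashed lines, and those of HSP18.2-CI reach from near 0 to about 2 in both mutants.

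The remaining 4 small heat shock proteins were at the edge of detection. Their counts summed to 2 in *fio1-1*, 8 in *fio1-2* and 4 in Col-0. HSP17.6C-CI, a class I protein, had 0 and 1 counts in *fio1-1*, 0 and 0 in *fio1-2*, and 1 and 0 in Col-0. HSP17.6-CII, a class II protein of the cytosol, had 0 and 0 counts in *fio1-1*, 0 and 1 in *fio1-2*, and 1 and 1 in Col-0. HSP21, the small heat shock protein of plastids, had 0 counts in all 4 mutant libraries, and 1 and 0 in Col-0. A count of 0 over the 2 libraries of a genotype allows a level of up to 0.149 CPM in *fio1-1*, 0.127 CPM in *fio1-2* and 0.149 CPM in Col-0, taking 3 counts as the limit.

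HSP17.7-CII (chr5:3883957-3884838, minus strand, 1 exon), the other class II protein, had 1 and 0 counts in *fio1-1*, 1 and 6 in *fio1-2*, and 0 and 0 in Col-0. With Col-0 set at the limit of 3 counts, it was 2.00-fold higher in *fio1-2* than in Col-0. That value takes the 7 counts in *fio1-2* as exact, so it is not a firm minimum. Its ratio in *fio1-2* to *fio1-1* was 5.99 with a counting interval of 0.77 to 270. One *fio1-2* library held 6 of the 7 counts, so the value rests on *fio1-2* replicate 2. Without the filter on low counts this gene was called in *fio1-2* against Col-0 (log2 fold change 2.47, limma-voom adjusted p 0.0414).

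Summed over the 7 small heat shock proteins, the level was 5.66 and 4.07 CPM in *fio1-1*, 5.92 and 4.44 CPM in *fio1-2*, and 2.76 and 5.67 CPM in Col-0. The groups overlapped, and the first Col-0 library was the lowest of the 6. In bulk seedlings, fewer cells that express a gene and less RNA per cell cannot be told apart. Some of these genes are alike in sequence. The coding sequences of HSP17.6-CII and HSP17.7-CII were 86.1% identical, those of HSP17.6C-CI and HSP17.4-CI 85.0%, and those of HSP17.8-CI and HSP17.6A-CI, a class I gene outside the 10, 88.1%. The longest run of identical bases in these pairs was 43, and how the counting treated reads that match more than 1 gene is not stated.

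Seed genes were read in the same libraries, since HSFA9 and some small heat shock proteins belong to seed maturation. All 7 seed storage markers, which encode 2S albumins and cruciferins, were called higher in both mutants by limma-voom. Their summed level was 35.9 and 34.9 CPM in *fio1-1*, 8309 and 8572 CPM in *fio1-2*, and 0.20 and 0.38 CPM in Col-0. ABI3 had 14 and 5 counts in *fio1-1*, 72 and 67 in *fio1-2*, and 7 and 11 in Col-0. It was called higher in *fio1-2* against Col-0 (log2 fold change 2.67, adjusted p 6.00e-07) and in *fio1-2* against *fio1-1* (2.73, adjusted p 9.47e-07), whereas in *fio1-1* against Col-0 the estimate was -0.06 (adjusted p 0.954). FUS3, another of the 5 listed regulators of embryo maturation, had 2 and 0 counts in *fio1-1*, 17 and 19 in *fio1-2*, and 0 and 1 in Col-0. Its ratio was 30.9 in *fio1-2* to Col-0 (interval 5.20 to 1253) and 15.41 in *fio1-2* to *fio1-1* (interval 3.97 to 132). The other regulators on that list are outside the naming rule and are given to complete it. LEC1 and LEC2 had at most 1 count in any library. ABI5 had log2 fold changes of -0.80 in *fio1-1* (adjusted p 0.0498), 0.17 in *fio1-2* (adjusted p 0.652) and 0.97 between *fio1-2* and *fio1-1* (adjusted p 0.0164). ABI5 was unstable. The adjusted p was no longer under 0.05 in 9 of 15 alternatives for *fio1-1* against Col-0 (up to 0.509, at -0.42 without Col-0 replicate 1) and in 4 of 15 for *fio1-2* against *fio1-1* (up to 0.385, at 0.55 without *fio1-2* replicate 2). In the other direction, it was called at -1.20 without Col-0 replicate 2 in the first comparison and at 1.302 without *fio1-2* replicate 1 in the second. The call of FUS3 between the mutants, at a log2 fold change of 3.82, was lost with DESeq2 (3.95, adjusted p 0.0542) and without *fio1-1* replicate 2 (2.66, adjusted p 0.0765). The part of these seed transcripts in the heat shock values was not tested.

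**Figure D3:**
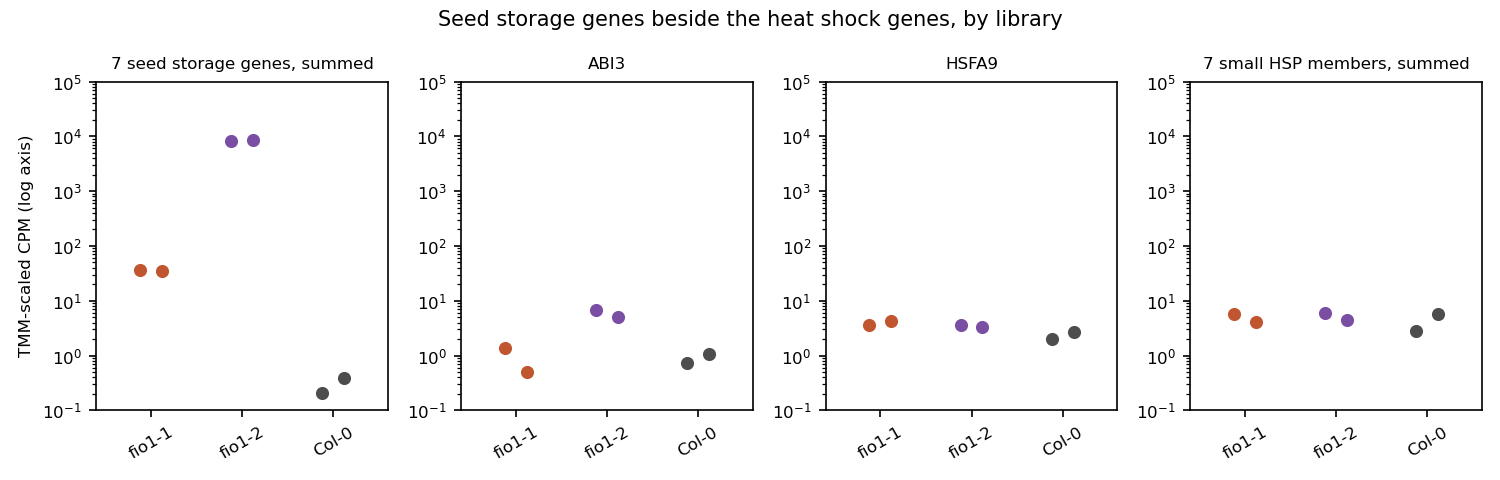
Levels per library in TMM-scaled CPM on a log axis for 7 seed storage genes summed, ABI3, HSFA9 and the 7 small heat shock proteins summed, with a point per library in *fio1-1*, *fio1-2* and Col-0. The storage genes stand at 8309 and 8572 CPM in *fio1-2* against 0.20 and 0.38 CPM in Col-0, whereas the small heat shock proteins lie between 2.76 and 5.92 CPM in all 6 libraries.

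The other genes of the heat response were read from 4 lists with 55 genes, of which 46 were tested. By adjusted p alone, 4 passed upwards and 11 downwards in *fio1-1* against Col-0, and in *fio1-2* against Col-0 the numbers were 3 upwards and 15 downwards. The shares of all genes tested were 14.2% upwards and 14.3% downwards in *fio1-1*. In *fio1-2* they were 16.4% upwards and 16.1% downwards. Between *fio1-2* and *fio1-1*, 4 were higher and 4 lower, against 9.31% and 8.76% of all genes. The median log2 fold change of the 46 genes was -0.12 in *fio1-1* and -0.14 in *fio1-2*, whereas that of all genes was 0.0075 and 0.0027. The genes called were 2 of the 46 in each mutant, near the 4.91% and 5.93% of all genes called in these comparisons.

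The 12 other small heat shock proteins gave 7 tested genes, whose log2 fold changes had a median of -0.06 in *fio1-1* and of -0.0067 in *fio1-2*. Of these 7, 1 was higher and 1 lower by adjusted p in *fio1-1*, against 14.2% and 14.3% of all genes. In *fio1-2*, 1 was higher and 3 were lower, against 16.4% and 16.1% of all genes. HSP15.4, a small heat shock protein, had 50.3 and 42.2 CPM in *fio1-1*, 26.2 and 24.7 CPM in *fio1-2*, and 18.9 and 21.4 CPM in Col-0. It was called higher in *fio1-1* (log2 fold change 1.19, SE 0.11, limma-voom adjusted p 7.86e-15) and passed the adjusted p, but not the fold, in *fio1-2* (0.33, adjusted p 0.0216). In *fio1-2* the adjusted p was no longer under 0.05 in 4 of 15 alternatives, at most 0.239 without Col-0 replicate 1. HSP23.5, a small heat shock protein of mitochondria, had 2.58 and 4.17 CPM in *fio1-1*, 3.34 and 4.06 CPM in *fio1-2*, and 9.20 and 10.1 CPM in Col-0. It was called lower in *fio1-1* (-1.54, SE 0.25, adjusted p 1.02e-06) and in *fio1-2* (-1.37, SE 0.23, adjusted p 1.44e-06). All libraries of the mutants were below those of Col-0. Between *fio1-2* and *fio1-1* the estimate was 0.18 (adjusted p 0.750). To complete the count, HSP17.6B-CI, a class I gene, and HSP18.5 were lower than Col-0 by adjusted p only in *fio1-2*. HSP17.6B-CI was at -0.69 there (limma-voom adjusted p 0.00892) and HSP18.5 at -0.43 (adjusted p 0.00491). For *fio1-1* the estimate of HSP17.6B-CI was -0.51 (adjusted p 0.0671), and that of HSP18.5 was -0.06 (adjusted p 0.777).

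The 19 other heat shock factors gave 16 tested genes and no call in any comparison by limma-voom. At an unadjusted p under 0.05 there were 7 in *fio1-1* against Col-0, 6 in *fio1-2* against Col-0 and 6 in *fio1-2* against *fio1-1*. With edgeR these counts were 7, 6 and 6 and with DESeq2 5, 3 and 2, and neither tool called any. With 16 genes the limma-voom counts are near the shares of all genes, of which 38.1%, 41.5% and 28.9% reached that p by limma-voom and 4.91%, 5.93% and 2.68% were called. DESeq2 gave a p to all 19 factors, and its counts have no share of all genes beside them here. By adjusted p, 1 passed upwards and 4 downwards in *fio1-1*, and 4 passed downwards and 0 upwards in *fio1-2*. Of all genes tested, 14.2% passed upwards and 14.3% downwards in *fio1-1*, and 16.4% and 16.1% in *fio1-2*. Between *fio1-2* and *fio1-1*, 3 factors passed upwards and 2 downwards, against 9.31% and 8.76% of all genes. Of these factors, 2 were chosen for mention after their values were seen. HSFB2A passed downwards in both mutants, by -0.89 (log2) in *fio1-1* and -0.60 in *fio1-2*, and HSFA7A passed upwards in *fio1-1*, by 0.62. The change of HSFB2A in *fio1-1* was called without *fio1-1* replicate 1, at -1.02. In *fio1-2* its adjusted p was no longer under 0.05 in 3 of 15 alternatives, at most 0.116 with DESeq2. HSFB2A belongs to class B, whose members in Arabidopsis act as repressors, but that class did not fall together. HSFB1 was at 0.09 in *fio1-1* and 0.19 in *fio1-2*, and HSFB4 at -0.06 and -0.17, none passing the adjusted p. HSFB2B was at -0.06 in *fio1-1* and passed downwards only in *fio1-2*, at -0.49. To complete the count, HSFA4A (-0.52 and -0.38) and HSFC1 (-0.49 and -0.52) passed downwards in both mutants. HSFA8 passed downwards in *fio1-1*, at -0.71.

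Among the 12 other chaperones, 2 were higher and 5 lower by adjusted p in each mutant. Of all genes tested, 14.2% were higher and 14.3% lower in *fio1-1*, and 16.4% and 16.1% in *fio1-2*. HSC70-3, a cytosolic HSP70 present without heat, had 139.6 and 139.4 CPM in *fio1-1*, 139.8 and 129.7 CPM in *fio1-2*, and 277.7 and 269.0 CPM in Col-0. Its log2 fold change was -0.97 in *fio1-1* (SE 0.05, limma-voom adjusted p 8.18e-27) and -1.02 in *fio1-2* (SE 0.05, adjusted p 1.15e-28), and only the change in *fio1-2* was called. That call was lost without *fio1-2* replicate 2, at -0.97. The constitutive cytosolic HSP90-2, HSP90-3 and HSP90-4, chosen for mention after their values were seen, summed to 411 and 421 CPM in *fio1-1*, 417 and 439 CPM in *fio1-2*, and 591 and 604 CPM in Col-0. Each was lower by adjusted p in both mutants, with log2 fold changes between -0.63 and -0.41. HSC70-1, the constitutive chaperone used above for comparison of levels, was also lower by adjusted p in both mutants, but by less. Against Col-0, limma-voom put it at -0.11 (log2) for *fio1-1*, where the adjusted p was 2.75e-04. For *fio1-2* it was at -0.14, where the adjusted p was 4.90e-07. Other members of the 2 families did not pass downwards, and those listed next are also named afterwards. HSC70-2 was at 0.07 in *fio1-1* (limma-voom adjusted p 0.769) and higher in *fio1-2*, at 0.65 (adjusted p 2.56e-05). HSP90-1 was at 0.10 and 0.25 in *fio1-1* and *fio1-2* (adjusted p 0.830 and 0.505). HSP70B was at 0.24 and 0.22 (adjusted p 0.430 and 0.450). HSP70-4, a heat-inducible cytosolic HSP70 also chosen afterwards, had 12.5 and 11.3 CPM in *fio1-1*, 13.9 and 12.6 CPM in *fio1-2*, and 7.26 and 6.16 CPM in Col-0. It rose by 0.83 in *fio1-1* (adjusted p 3.28e-04) and by 0.98 in *fio1-2* (adjusted p 9.97e-06), below the fold that a call needs. It was called in *fio1-2* without Col-0 replicate 1, at 1.09, and without *fio1-2* replicate 2, at 1.05.

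Of the 12 other heat response genes, 11 were tested. By adjusted p, 1 passed downwards in *fio1-1* and 3 in *fio1-2*, and 0 passed upwards in either mutant. Of all genes tested, 14.3% passed downwards in *fio1-1* and 16.1% in *fio1-2*, and 14.2% and 16.4% passed upwards. Chosen for mention after their values were seen, ROF1, an immunophilin-type co-chaperone, was at -0.17 (log2 fold change by limma-voom, adjusted p 0.0388) in *fio1-1* and at -0.23 (adjusted p 0.00210) in *fio1-2*. In *fio1-2*, DREB2A, a transcription factor of the drought and heat response, was at -0.81 (adjusted p 2.17e-04) and FES1A, a partner of cytosolic HSP70, at -0.54 (adjusted p 0.00325). The adjusted p was no longer under 0.05 in 7 of 15 alternatives for ROF1 in *fio1-1*, at most 0.215 without Col-0 replicate 2, and in 2 of 15 for FES1A in *fio1-2*, at most 0.0711 with DESeq2.

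**Figure D4:**
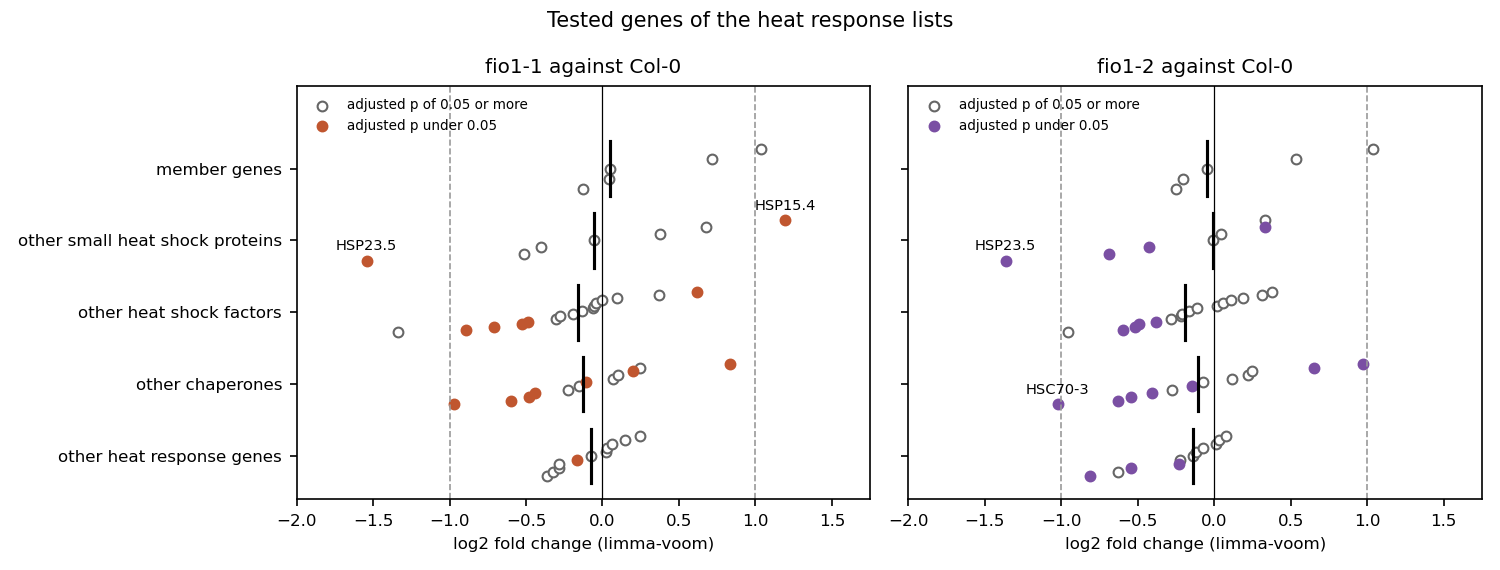
Log2 fold change (horizontal axis, limma-voom) of the tested genes of each heat response list in *fio1-1* against Col-0 (left) and *fio1-2* against Col-0 (right), with filled points for an adjusted p under 0.05, a vertical bar at the median of each list and dashed lines at 1 and -1. The 5 member genes have no filled point, and the genes called are HSP15.4 and HSP23.5 in *fio1-1* and HSP23.5 and HSC70-3 in *fio1-2*.

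Likeness of pattern was measured as Pearson's r of log2 CPM over the 6 libraries, as a description, among 20691 genes with a mean of at least 1 CPM. For HSFA9 the most alike were AT3G17030 (r = 0.995), AT1G18660 (r = 0.994) and AT3G08835 (r = 0.994), and 694 genes reached 0.9. For HSP101 they were AT1G68160 (r = 0.983), AT2G22230 (r = 0.982) and AT5G66520 (r = 0.979), and 138 genes reached 0.9. For HSP18.2-CI they were AT1G48950 (r = 0.987), AT4G14520 (r = 0.981) and VSR3 (r = 0.974), and 95 genes reached 0.9. The libraries share genotype, so genes that differ between genotypes are alike by that alone. A search of 20691 genes over 6 libraries also returns high r values by chance, and how many was not tested. None of the genes named here as most alike belongs to the heat response lists.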

How the data were processed

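RNA-seq libraries of 3 genotypes, 2 each, were read as deposited raw read counts per gene. The authors trimmed reads with Trim Galore 0.6.3, aligned them to TAIR10 with HISAT2 2.1.0 and counted them with HTSeq 0.9.1. Use of the strand in counting is not given in the sources used here. Fold changes and p-values of the authors' own limma 3.38.3 comparison were deposited as 2 tables and not used.

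Of 32833 genes, 26601 had a count and filterByExpr kept 21268. Total counts were 9717111 to 13055457 per library. Counts of the 6 libraries were scaled with TMM factors and fitted together with limma-voom, with a mean per genotype, the test that the methods of the study state. Adjusted p-values are Benjamini-Hochberg values over all 21268 genes. Versions were limma 3.58.1, DESeq2 1.42.0 and edgeR 4.0.16 under R 4.3.3. The main limma-voom fit and the edgeR and DESeq2 fits were tested on simulated data, in the comparisons with Col-0 only. In the simulation only genes above a count minimum were changed, and the other alternatives were not simulated. CPM and intervals were computed here. Where a group had 0 counts, the fold was taken against 3 counts summed over its libraries. Intervals on summed counts cover counting error only, since PCR reads without molecular identifiers are not independent molecules.

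The study calls the samples biological replicates without saying that they were grown apart, so p-values speak only of these samples. In limma-voom the spread of each gene was drawn towards that of all genes, with 3 residual and 62.1 prior degrees of freedom. Its p-values and intervals therefore rest mostly on the spread shared by all genes, and less on that between a gene's own replicates. With 2 libraries against 2, an exact permutation test cannot give a p under 0.333. The members and lists were chosen with earlier results of these data known. Named genes are all members, the 2 called genes of each list with the largest change, and for HSFA9, HSP101 and HSP18.2-CI the 3 genes most alike over the libraries. Other genes are named as markers, as neighbours that overlap a member, or to complete a list or count, after their values were seen. Gene names, coordinates and sequences are those of RefSeq TAIR10.1, matched by locus for 32548 of 32833 genes and all 10 members. The alternatives were other scaling factors, no filter, edgeR, DESeq2, a robust prior, sample weights, a replicate block, only the genotypes compared, adjusted p alone and each library left out.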

Additional observations from a re-analysis of the deposited data

Results flagged for a closer look

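HSP15.4 was picked out because the mutants differed from each other by a test of the difference itself. Its log2 fold change in *fio1-2* against *fio1-1* was -0.86 (limma-voom adjusted p 4.15e-11), with values of 26.2 and 24.7 CPM in *fio1-2* and 50.3 and 42.2 CPM in *fio1-1*. The direction was the same in all 15 alternatives, with log2 fold changes between -0.99 and -0.73. By the same test HSFA7A, a heat shock factor of class A, was at -0.83 (log2) in *fio1-2* against *fio1-1* (adjusted p 2.12e-07). The embryo regulators ABI3, at 2.73 (adjusted p 9.47e-07), FUS3, at 3.82 (adjusted p 1.10e-04), and ABI5, at 0.97 (adjusted p 0.0164), differed in the opposite direction. That of ABI5 was no longer under an adjusted p of 0.05 in 4 of 15 alternatives, with an adjusted p of up to 0.385. None of the 5 member genes tested met this criterion.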

How the results depend on the processing

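Over the alternatives, 862 log2 fold changes of named genes kept their direction and their call by fold and adjusted p together, 25 changed sign, 9 were called only in the alternative and 3 lost the call. The count of members called, 0 in each comparison, became 1 in *fio1-2* against Col-0 with no filter on low counts. With a library left out it was 0 to 1 in *fio1-1* against Col-0 and 0 to 1 in *fio1-2* against Col-0, the gene being HSP18.2-CI. With adjusted p alone, the genes of the 4 lists called were 15 in *fio1-1* against Col-0 and 18 in *fio1-2* against Col-0, where both fold and p gave 2 and 2, and 8 in *fio1-2* against *fio1-1*, where both gave 0. In the last comparison 1 was called without the filter (HSFA6A, named after its value was seen). The wider counts follow from dropping the fold limit or the filter.

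ABI3 in *fio1-1* against Col-0, at -0.06, moved to 0.081 with edgeR, 0.078 with DESeq2 and 0.051 with the replicate block. HSP18.2-CI in *fio1-2* against *fio1-1* had -0.016 with upper-quartile factors. ABI5 in that comparison reached the call with edgeR, at 1.01, and lost its adjusted p in 4 of 15 alternatives. With a library left out, the log2 fold change in *fio1-1* against Col-0 lay between -0.10 and 0.18 for HSP101, -0.69 and 0.47 for HSP17.4-CI, -0.24 and 2.38 for HSP18.2-CI, -0.77 and 0.63 for ABI3, and -0.80 and 1.53 for FUS3. In *fio1-2* against Col-0 it lay between -0.62 and 0.55 for HSP17.4-CI, -0.52 and 0.050 for HSP17.8-CI, -0.24 and 2.38 for HSP18.2-CI, and -0.25 and 0.55 for ABI5. In *fio1-2* against *fio1-1* it lay between -0.23 and 0.38 for HSP17.4-CI, -0.57 and 0.0028 for HSP17.8-CI, -0.54 and 0.69 for HSP18.2-CI, -0.16 and 0.52 for HSP23.5, and -0.11 and 0.0029 for HSC70-3. The cause was not tested in any of these cases.

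Replicate numbers are shared by the 3 groups, but same-numbered libraries did not deviate together across all tested genes (r between -0.028 and 0.0003). An r over all genes can miss a deviation shared by part of them, and that was not tested. With the replicate block, 0 members were called in each comparison, and for HSP18.2-CI limma-voom gave a log2 fold change of 0.92 at an adjusted p of 0.188 in *fio1-1*, and of 0.93 at 0.168 in *fio1-2*. Depth limits 5 of the 10 members to counts too low to test, and a p that misses the threshold does not show that levels are equal.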
